A study of Rattus norvegicus with 4 samples.

Results

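Fatty acid uptake, oxidation and uncoupling in the rat soleus were described through 37 genes, chosen by name for their roles in the pathway. The choice was made with earlier results of these data known. All 37 were on the array, with 50 probe sets annotated to exactly 1 of these symbols, among 14217 genes and 20826 probe sets with 1 symbol in all. A slow muscle such as the soleus runs largely on fat. Fatty acids are released from lipoproteins at the capillary wall, taken up and bound in the cytosol, joined to coenzyme A, carried into mitochondria as carnitine esters, and shortened by repeated rounds of beta-oxidation that hand electrons to the respiratory chain. Malonyl-CoA restrains the carnitine step, and uncoupling proteins of the inner membrane are expressed with this pathway in muscle.

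The muscle came from male Wistar rats that were 10 weeks old at the start, were fed for 24 days and are labelled as 14 weeks old. The 4 groups, with 8 rats to a diet, were denervated and sham soleus of rats on an AIN-93G diet with 0.05% genistein (0.5 g per kg of diet), a soy isoflavone that binds oestrogen receptors, and denervated and sham soleus of rats on a modified AIN-93G control diet with corn oil in place of soybean oil. On day 14 the sciatic nerve of the left leg was cut and the right leg had a sham operation, and the muscles were taken 10 days later, so the denervated and sham pools of a diet come from the same rats. RNA of the 8 rats of a group was pooled on 1 Affymetrix array, which leaves every value without replicate or error. No test was made: a fit of denervation over both diets would rest on 1 residual degree of freedom. Each comparison describes these 4 pools.

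Groups were taken from the sample titles, since the treatment field of 2 samples contradicts their titles. Chrna1 is the acetylcholine receptor subunit that spreads over the fibre after nerve loss. It read 16186 units in denervated and 1589 in sham muscle on genistein, and 20549.7 and 1859.7 on the control diet. This goes with the titles for the operation only, and the diet of each array was not checked by a gene. All 7 muscle fibre markers looked up were above the floor, among them Ckm, muscle creatine kinase, at 20857 to 39323 units and Myh7, the slow myosin, at 24104 to 48928 units. Signals below 78.9 units, which is the 40th percentile over the probe sets other than controls, were raised to that floor, and a gene counted as measured where 1 of the arrays compared was above it. Where a gene had several probe sets, the one with the highest mean signal was used. As a guide to scatter, log2 ratios of different probe sets of a gene had an SD of 0.36 for denervation on genistein, 0.35 on the control diet, 0.25 for diet in denervated muscle and 0.26 for diet in sham muscle (2310 genes). This SD leaves out scatter between pools. In pooled whole muscle, fewer cells of a type and less RNA per cell cannot be told apart.

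Most of the pathway was lower in denervated than in sham muscle on both diets. On both diets 4 genes were higher, 3 of them at least 2-fold and Acacb by less. Of 36 measured genes, 22 on genistein and 15 on the control diet were at least 2-fold lower, against 6.57% and 7.63% of all measured genes. The 15 were lower on both diets, where 4.93% of all genes were. The genes Acsl4, Acsl3 and Ucp3 were at least 2-fold higher on both diets, against 3.59% of all genes. On each diet alone they were the only pathway genes that high, beside 4.96% of all genes on genistein and 5.04% on the control diet. The median log2 ratio of the 36 genes was -1.10 on genistein and -0.87 on the control diet, beside 0.02 and -0.0029 for all measured genes. Ratios below 0 were found for 31 genes on genistein and 32 on the control diet (48.3% and 50.2% of all genes). In 31 genes both denervated arrays read below both sham arrays (33.5% of all genes did), and in 4 both read above both (36.5% of all genes). The pathway genes are mostly bright, 31 of 37 averaging at least 1000 units. Among all genes that bright, 10.8% on genistein and 10.7% on the control diet were at least 2-fold lower. As the list was chosen with earlier results of these data known, these shares describe it and are no test of it.

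**Figure D1:**
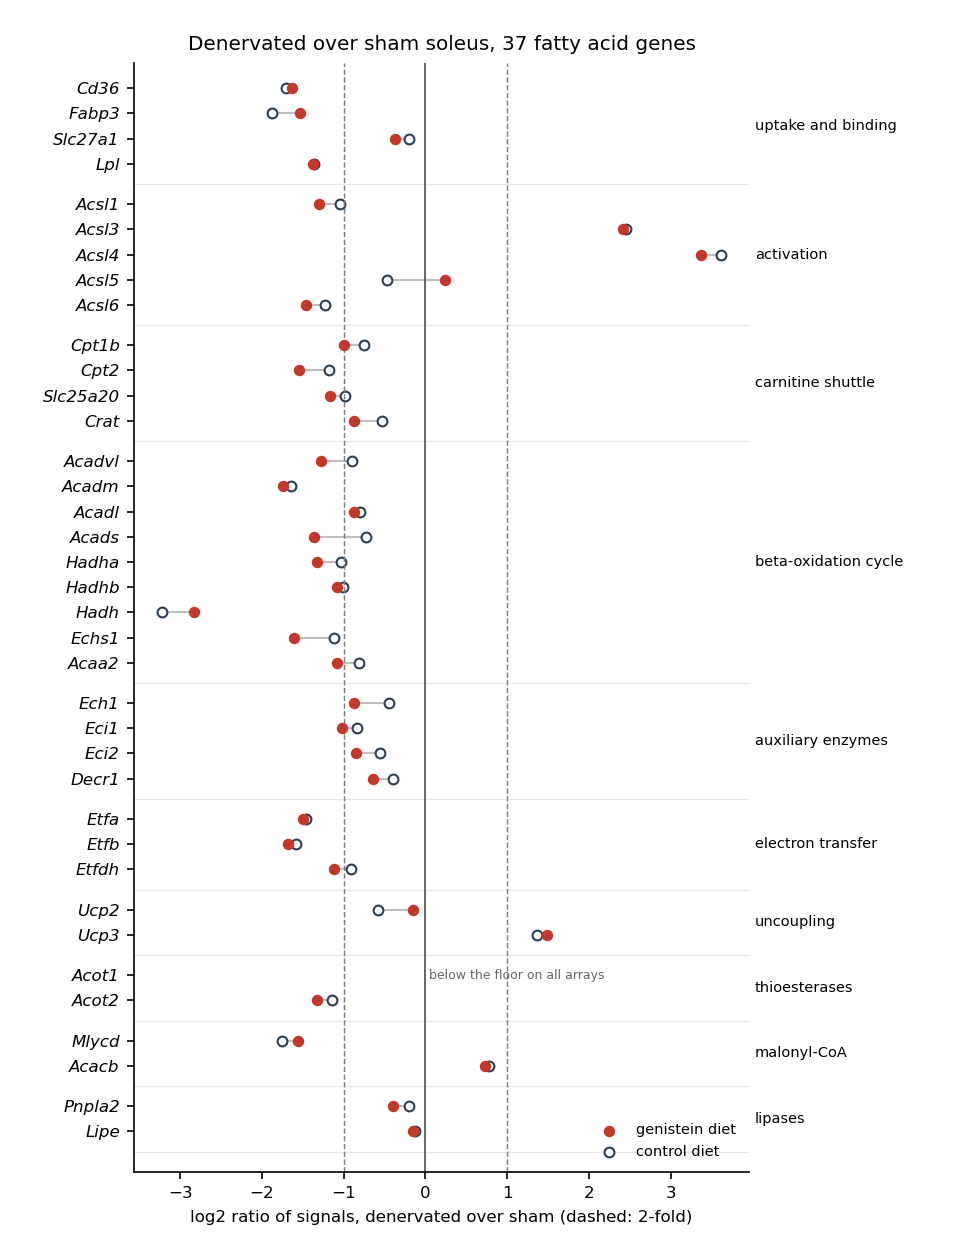
Log2 ratio of denervated over sham signal for each of the 37 genes, grouped by role, with the genistein diet as filled points and the control diet as open points (1 array per group, no error bars). Acsl3, Acsl4 and Ucp3 lie right of the upper 2-fold line on both diets and Hadh lies farthest left.

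The hybridisation controls are transcripts that are added at the hybridisation of each array. They were dimmer on the denervated arrays (geometric means of 1726 and 1888 units on genistein and the control diet) than on the sham arrays (2412 and 2434 units). Scaling the arrays on them left 9 genes on genistein and 8 on the control diet past the lower 2-fold line, against 2.41% and 3.66% of all genes. It put 27 and 29 of the 36 genes below 0, with medians of -0.62 and -0.50, and moved the median of all genes to 0.48 and 0.35. Of all genes past 2-fold, 43.0% on genistein and 39.8% on the control diet were higher as deposited, and 87.2% and 76.3% with that scaling. Several genes sit near the line: 4 on genistein lay past it by under 0.1 and 0 short of it by that much, and on the control diet 3 lay past and 2 short. Across the 36 genes the log2 ratios of the 2 diets, which share no array, correlated at a Pearson r of 0.974 and a Spearman rho of 0.948, beside 0.852 and 0.764 across all 10414 genes measured on both. Genes are not independent replicates, and the sham and denervated pools of each diet share their rats.

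**Figure D2:**
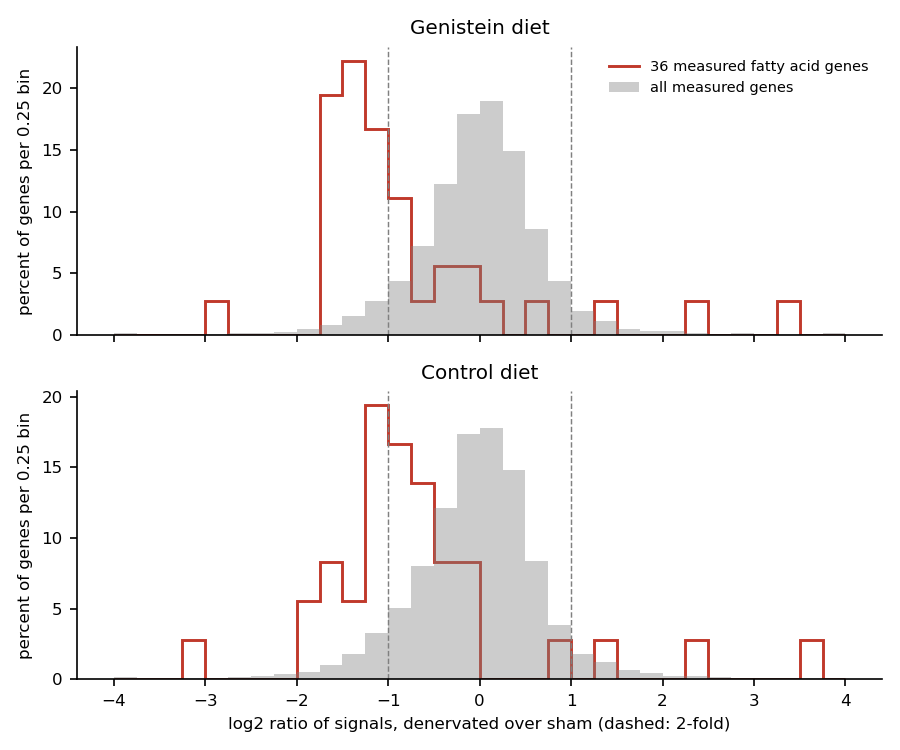
Percent of genes per bin of 0.25 in the log2 ratio of denervated over sham signal, for the 36 measured fatty acid genes (line) and all measured genes (grey), with the genistein diet above and the control diet below. Genes beyond 4 in either direction are drawn in the end bins. The fatty acid genes peak left of the grey distribution, around the lower 2-fold line, with a few separate genes on the right.

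Of the 4 genes of uptake and binding, 3 were at least 2-fold lower on both diets, and the transporter Slc27a1 was lower by less. Cd36, the membrane fatty acid translocase, read 2762 units in denervated and 8596 in sham muscle on genistein, against 2579.7 and 8434 on the control diet, which was 3.11-fold and 3.27-fold lower. A further probe set, annotated to both Cd36 and Cd36l1 and therefore not used, gave log2 ratios of -1.51 and -1.51. Fabp3, the heart and muscle fatty acid binding protein of the cytosol, read 10381 units in denervated and 30102 in sham muscle on genistein, against 9612 and 35383 on the control diet. It was 2.90-fold and 3.68-fold lower, and its denervated arrays lay far below both sham arrays. Lpl, the lipoprotein lipase that frees fatty acids at the capillary wall, read 9923 units in denervated and 25688 in sham muscle on genistein, against 10426 and 26938 on the control diet. Its log2 ratio was -1.37 on each diet. Slc27a1, the fatty acid transport protein FATP1, differed little, with 539 and 698 units in denervated and sham muscle on genistein and 675 and 773 on the control diet (-0.37 and -0.20).

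The acyl-CoA synthetases, which attach coenzyme A to a fatty acid before any further use, split in opposite directions. Acsl4, which prefers arachidonic acid and other polyunsaturated fatty acids, read 10471 units in denervated and 1014 in sham muscle on genistein, against 11919 and 975 on the control diet. This was 10.3-fold and 12.2-fold higher, the highest ratios among the 36 genes on both diets. Acsl3, a synthetase of the endoplasmic reticulum and lipid droplets, read 3008 units in denervated and 563 in sham muscle on genistein, against 3002 and 551 on the control diet, 5.34-fold and 5.45-fold higher. For these genes the denervated pools of the 2 diets nearly coincided, as did the sham pools.

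Acsl1, the main synthetase feeding oxidation in muscle, lay on the other side, with 7567 units in denervated and 18645 in sham muscle on genistein, against 9091 and 18749 on the control diet. It was 2.46-fold and 2.06-fold lower, and its next probe set gave log2 ratios of -1.34 and -1.26. Acsl6 read 508 units in denervated and 1404 in sham muscle on genistein, against 704 and 1649 on the control diet, 2.76-fold and 2.34-fold lower. Acsl5 was the only measured gene of the 36 whose denervation ratio differed in sign between diets, with 355 and 302 units in denervated and sham muscle on genistein (0.23) and 313 and 434 on the control diet (-0.47). Its other probe set gave -0.35 and -0.89, so it was below 0 on both diets there.

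**Figure D3:**
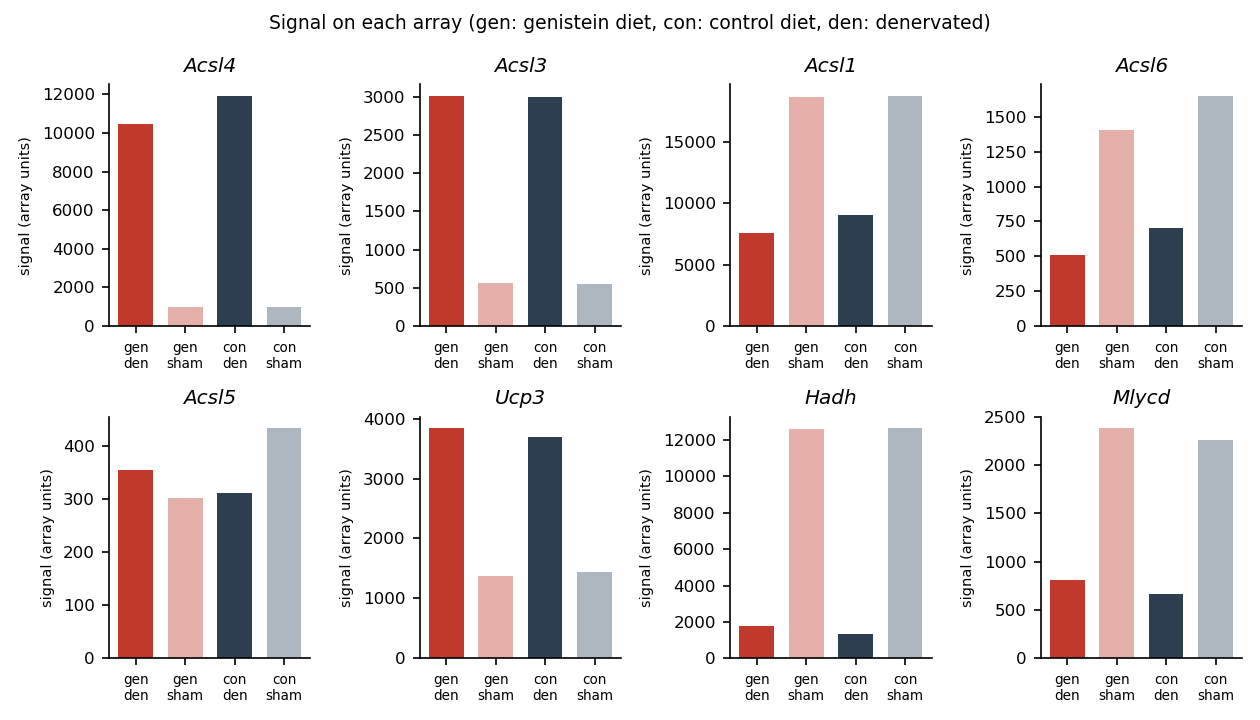
Deposited signal on each of the 4 arrays for the 5 acyl-CoA synthetases, Ucp3, Hadh and Mlycd, with 1 bar per array and an axis starting at 0 in each panel. Denervated bars stand above sham bars on both diets for Acsl4, Acsl3 and Ucp3, and below them for Acsl1, Acsl6, Hadh and Mlycd.

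The carnitine shuttle was lower throughout, with 3 of its 4 genes at least 2-fold lower on genistein and 1 on the control diet. Cpt1b, the muscle carnitine palmitoyltransferase of the outer membrane and the step that malonyl-CoA inhibits, read 7098 units in denervated and 14197 in sham muscle on genistein, against 8498 and 14275 on the control diet (-1.00 and -0.75). Slc25a20, the carrier that swaps acylcarnitine for carnitine across the inner membrane, read 2258 and 5083 units in denervated and sham muscle on genistein, against 2471 and 4884 on the control diet (-1.17 and -0.98). Cpt2, which returns the fatty acid to coenzyme A in the matrix, read 1309 and 3821 units in denervated and sham muscle on genistein, against 1604 and 3639 on the control diet. At 2.92-fold and 2.27-fold lower it had the lowest ratios of the shuttle. Crat, the carnitine acetyltransferase that buffers acetyl-CoA, read 2260.2 and 4133 units in denervated and sham muscle on genistein, against 2900.2 and 4183 on the control diet (-0.87 and -0.53), short of 2-fold on both.

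All 9 enzymes of the beta-oxidation cycle were lower in denervated muscle on both diets, 8 of them at least 2-fold on genistein and 5 on the control diet. The cycle opens with acyl-CoA dehydrogenases of falling chain length. Acadm, the medium-chain enzyme, read 4798 units in denervated and 16073 in sham muscle on genistein, against 5220.1 and 16314 on the control diet, 3.35-fold and 3.13-fold lower. Acadvl, the very-long-chain enzyme, read 2759 and 6702 units in denervated and sham muscle on genistein, against 3215 and 5976 on the control diet (-1.28 and -0.89). Acads, the short-chain enzyme, read 902 and 2311 units in denervated and sham muscle on genistein, against 1164 and 1922 on the control diet (-1.36 and -0.72). Acadl, the long-chain enzyme, was the only member of the cycle short of 2-fold on both diets, at 12559 and 23112 units in denervated and sham muscle on genistein and 13821 and 24094 on the control diet.

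Hadh, the short-chain hydroxyacyl-CoA dehydrogenase of the cycle's later steps, had the lowest ratios of all 36 genes. It read 1764 units in denervated and 12573 in sham muscle on genistein, against 1358 and 12639 on the control diet, 7.13-fold and 9.31-fold lower, and its other probe set was below the floor on all 4 arrays. Hadha and Hadhb encode the alpha and beta subunits of the trifunctional protein, which carries long chains through the last steps of a round. Hadha read 3080.0 and 7726 units in denervated and sham muscle on genistein, against 3524 and 7188 on the control diet (-1.33 and -1.03). Hadhb read 11339 and 24109 units in denervated and sham muscle on genistein, against 12373 and 24818 on the control diet (-1.09 and -1.00). The subunit genes thus differed by 2.51-fold and 2.04-fold (Hadha) and 2.13-fold and 2.01-fold (Hadhb), close to the line on the control diet. Echs1, the short-chain enoyl-CoA hydratase, read 1945 and 5934 units in denervated and sham muscle on genistein, against 2453 and 5319 on the control diet (-1.61 and -1.12). Acaa2, the mitochondrial thiolase, read 5298 and 11189 units in denervated and sham muscle on genistein, against 5982 and 10495 on the control diet (-1.08 and -0.81).

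The auxiliary enzymes, which let unsaturated fatty acids enter the cycle, were lower by less. Eci1, an enoyl-CoA isomerase, read 5133 and 10446 units in denervated and sham muscle on genistein, against 5727 and 10232 on the control diet. It was 2.03-fold lower on genistein and 1.79-fold on the control diet, and no other auxiliary gene reached 2-fold on either diet. Decr1, the 2,4-dienoyl-CoA reductase, read 5010.1 and 7815 units in denervated and sham muscle on genistein, against 6161 and 8147 on the control diet (-0.64 and -0.40). Ech1, which rearranges double bonds, was at -0.88 and -0.45, and Eci2, a further isomerase, at -0.85 and -0.56. The auxiliary genes had a median of -0.87 on genistein and -0.50 on the control diet, beside -1.33 and -1.00 for the cycle itself.

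The electron transfer genes, which pass electrons from the acyl-CoA dehydrogenases to ubiquinone, were lower on both diets and alike between them. Etfa, the alpha subunit of electron transfer flavoprotein, read 5445 units in denervated and 15399 in sham muscle on genistein, against 5430.4 and 14951 on the control diet, 2.83-fold and 2.75-fold lower. Etfb, the beta subunit, read 3927 and 12591 units in denervated and sham muscle on genistein, against 4268 and 12828 on the control diet, 3.21-fold and 3.01-fold lower. Etfdh, the ubiquinone oxidoreductase that receives the electrons, read 2362 and 5132 units in denervated and sham muscle on genistein, against 2695 and 5061 on the control diet (-1.12 and -0.91).

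Of the uncoupling proteins, Ucp3, the form of skeletal muscle, was higher in denervated muscle. It read 3839.8 units in denervated and 1367 in sham muscle on genistein, against 3689.9 and 1436 on the control diet, 2.81-fold and 2.57-fold higher. Its other probe set was higher too, by log2 ratios of 0.57 and 1.06, so its size on genistein depends on the probe set. Ucp2, a widely expressed relative whose gene lies next to Ucp3 on chromosome 1, was dim, at 128 and 141 units in denervated and sham muscle on genistein and 128 and 191 on the control diet (-0.15 and -0.58). Neither ratio of Ucp2 reached 2-fold.

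Acot2, the mitochondrial thioesterase that releases free fatty acids from coenzyme A, read 1268 units in denervated and 3182 in sham muscle on genistein, against 1322.5 and 2919 on the control diet. It was 2.51-fold and 2.21-fold lower, and its other probe sets gave -1.09 and -0.94 on genistein and -1.51 and -0.96 on the control diet. Acot1, its cytosolic neighbour on chromosome 6, read 29.6 to 32.7 units, below the floor on all 4 arrays, and has no ratio. A probe set annotated to both genes was at -0.84 and -0.97.

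Of the malonyl-CoA genes of this list, Mlycd was below 0 and Acacb above 0 on both diets. Mlycd, malonyl-CoA decarboxylase, which removes the inhibitor of Cpt1b, read 806.5 units in denervated and 2383 in sham muscle on genistein, against 671 and 2259 on the control diet, 2.95-fold and 3.37-fold lower. Acacb, the acetyl-CoA carboxylase whose product reaches Cpt1b, was dim, at 137 and 82.5 units in denervated and sham muscle on genistein and 135 and 78.3 on the control diet. It was 1.66-fold higher on genistein. Its sham signal on the control diet was below the floor, so it was at least 1.71-fold higher there, short of the 2-fold line. Acaca, the other acetyl-CoA carboxylase, belongs to the synthesis list below and was named after its values were seen. It was brighter, at 781 and 1601 units in denervated and sham muscle on genistein and 849 and 1245 on the control diet. Its log2 ratios were -1.04 and -0.55, below 0 like those of Mlycd. The lipases that mobilise stored fat differed little: Pnpla2, adipose triglyceride lipase, was at -0.39 and -0.20 (956 to 1272 units), and Lipe, hormone-sensitive lipase, at -0.16 and -0.13 (318 to 367 units).

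Of the 37 genes, 10 had more than 1 probe set, with 13 further probe sets in all. Of these, 7 were above the floor on every array, and in 12 of 14 pairs (7 probe sets on 2 diets) the denervation ratio had the same sign as on the probe set used. The exceptions were Acsl5 on genistein and Acaa2 on the control diet, where a dim probe set of Acaa2 (122 to 213 units) gave 0.21. Another dim probe set of Hadha, at 123 to 202.5 units, gave -0.38 on genistein and -0.46 on the control diet.

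Promoters are shown for the 3 genes that were at least 2-fold higher in denervated muscle, for Hadh, which had the lowest ratios, and for Hadhb. The start of Hadhb lies beside that of Hadha on the opposite strand. Sequences are as RefSeq gives them on GRCr8, from 250 bases before to 50 bases after the annotated start. These sequences are for reference only, since the arrays measured no binding at them. The capitals mark CAGCTG, an E box as bound by myogenic factors, and AGGTCA or its reverse complement TGACCT, the core letters bound by nuclear receptors. In Ucp3 the second AGGTCA overlaps the E box. The windows of Hadha and Hadhb overlap by 200 bases, on opposite strands.
Acsl4 (chrX:110803212-110803511, minus strand): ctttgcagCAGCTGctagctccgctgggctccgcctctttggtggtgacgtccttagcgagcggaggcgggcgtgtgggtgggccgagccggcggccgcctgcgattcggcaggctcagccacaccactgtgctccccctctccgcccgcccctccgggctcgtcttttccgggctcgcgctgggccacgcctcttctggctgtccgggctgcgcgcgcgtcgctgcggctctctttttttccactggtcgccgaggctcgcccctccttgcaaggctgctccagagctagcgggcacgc
Acsl3 (chr9:87563351-87563650, plus strand): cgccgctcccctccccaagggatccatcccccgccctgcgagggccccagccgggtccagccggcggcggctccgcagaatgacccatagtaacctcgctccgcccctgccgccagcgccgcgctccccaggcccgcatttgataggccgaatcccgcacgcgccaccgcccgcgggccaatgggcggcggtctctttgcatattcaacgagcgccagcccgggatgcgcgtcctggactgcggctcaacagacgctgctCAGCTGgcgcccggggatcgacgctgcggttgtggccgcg
Ucp3 (chr1:164227660-164227959, plus strand): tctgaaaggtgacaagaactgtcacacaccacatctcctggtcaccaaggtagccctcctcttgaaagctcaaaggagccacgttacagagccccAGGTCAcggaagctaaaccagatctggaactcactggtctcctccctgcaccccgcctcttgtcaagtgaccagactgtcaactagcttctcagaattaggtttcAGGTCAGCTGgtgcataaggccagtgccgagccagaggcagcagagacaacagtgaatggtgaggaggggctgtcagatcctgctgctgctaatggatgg
Hadh (chr2:222504397-222504696, minus strand): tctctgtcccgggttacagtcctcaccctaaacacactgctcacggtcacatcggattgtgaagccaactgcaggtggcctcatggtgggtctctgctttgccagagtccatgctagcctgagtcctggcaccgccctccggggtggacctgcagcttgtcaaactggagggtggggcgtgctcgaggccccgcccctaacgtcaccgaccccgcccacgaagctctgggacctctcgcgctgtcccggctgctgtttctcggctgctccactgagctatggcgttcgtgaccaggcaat
Hadhb (chr6:31907451-31907750, minus strand): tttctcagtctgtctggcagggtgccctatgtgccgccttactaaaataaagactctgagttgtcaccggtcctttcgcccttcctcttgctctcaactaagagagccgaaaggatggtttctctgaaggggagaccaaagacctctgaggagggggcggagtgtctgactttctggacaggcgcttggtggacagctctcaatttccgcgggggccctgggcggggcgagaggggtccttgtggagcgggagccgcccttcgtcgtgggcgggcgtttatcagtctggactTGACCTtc

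All 3 of the genes that were at least 2-fold higher held CAGCTG in this window, and Hadh held none of the letters searched. CAGCTG was also in genes that were lower. Among these, Mlycd, with 2 copies, and Acadm were at least 2-fold lower on both diets, and Eci2 and Slc27a1 were lower by less. Promoters were found for 30 of the 37 genes, of which 9 (30.0%) held CAGCTG on either strand, against 15.1% of 27457 rat promoters of the same length. AGGTCA was in 8 of the 30 (26.7%), against 15.7% of all, and Ucp3 held 2 copies. TCAAGGTCA, the longer form bound by oestrogen-related receptors, which contains AGGTCA, was in none of the 30 and in 0.412% of all. A match is a description of letters and not a bound site, and its absence here says only that these letters are not in this window.

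Between diets the pathway differed little, and no gene reached 2-fold. In denervated muscle the median log2 ratio of genistein over control diet was -0.13, with 27 of 36 genes below 0, where 49.9% of all genes and 62.8% of genes averaging at least 1000 units were below 0. In sham muscle the median was 0.01, with 18 of 36 below 0, against 49.5% of all genes and 54.4% of those averaging at least 1000 units. At 2-fold, 1.02% of all genes were higher and 0.124% lower on genistein in denervated muscle, and 0.324% higher and 0.287% lower in sham muscle. Higher genes made up 89.2% of those past 2-fold in denervated muscle as deposited, and 69.3% after scaling on the array median. In denervated muscle 24 of the 36 genes, and in sham muscle 32, lay within the SD between probe sets. How many of all genes lay within that SD is not given here, but bins of 0.25 come close to it. From -0.25 to 0, denervated muscle held 47.22% of the pathway genes and 35.98% of all genes. From 0 to 0.25 it held 19.44% and 29.34%. In sham muscle these shares were 44.44% and 35.60% below 0, and 44.44% and 34.69% above. Scaling on the array median moved the median of all genes in denervated muscle to -0.13 and put the pathway at -0.27. Scaling on the hybridisation controls moved the median of all genes there to 0.13. It put the pathway at -0.0049, with 19 of 36 below 0. The pathway median minus that of all genes was -0.13 both with that scaling and as deposited. After quantile normalization 8 of 36 genes were below 0 in sham muscle, with a median of 0.05 beside -0.0015 for all genes. The share of all genes below 0 after that normalization is not given here.

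The genes with the lowest diet ratios in denervated muscle were Acsl6 at -0.47 (508 units on genistein and 704 on the control diet), Acads at -0.37 (902 and 1164 units), Crat at -0.36 (2260.2 and 2900.2 units) and Echs1 at -0.34 (1945 and 2453 units). Hadh was highest at 0.38, with 1764 units on genistein and 1358 on the control diet, followed by Mlycd at 0.27 (806.5 and 671 units). In sham muscle the largest differences were Acsl5 at -0.52 (302 and 434 units), Ucp2 at -0.43 (141 and 191 units), Eci2 at 0.28 (2833 and 2330.4 units) and Acads at 0.27 (2311 and 1922 units). The 4 shuttle genes and the 4 auxiliary genes were all below 0 in denervated muscle.

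Set as a difference between diets, the denervation log2 ratio was more negative on genistein in 29 of 36 genes, with a median difference of -0.19, where 50.4% of all genes and 58.3% of the genes averaging at least 1000 units were below 0. For 26 of the 36 genes the difference was within the SD of 0.34 between probe sets. It was beyond that SD and negative for 6 genes, led by Acads (-0.63) and Echs1 (-0.49), and positive for 4, led by Acsl5 (0.71) and Ucp2 (0.43). The share of all genes beyond that SD is not given here, so these counts cannot be set against it. The difference rests on 4 arrays and was not tested.

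**Figure D4:**
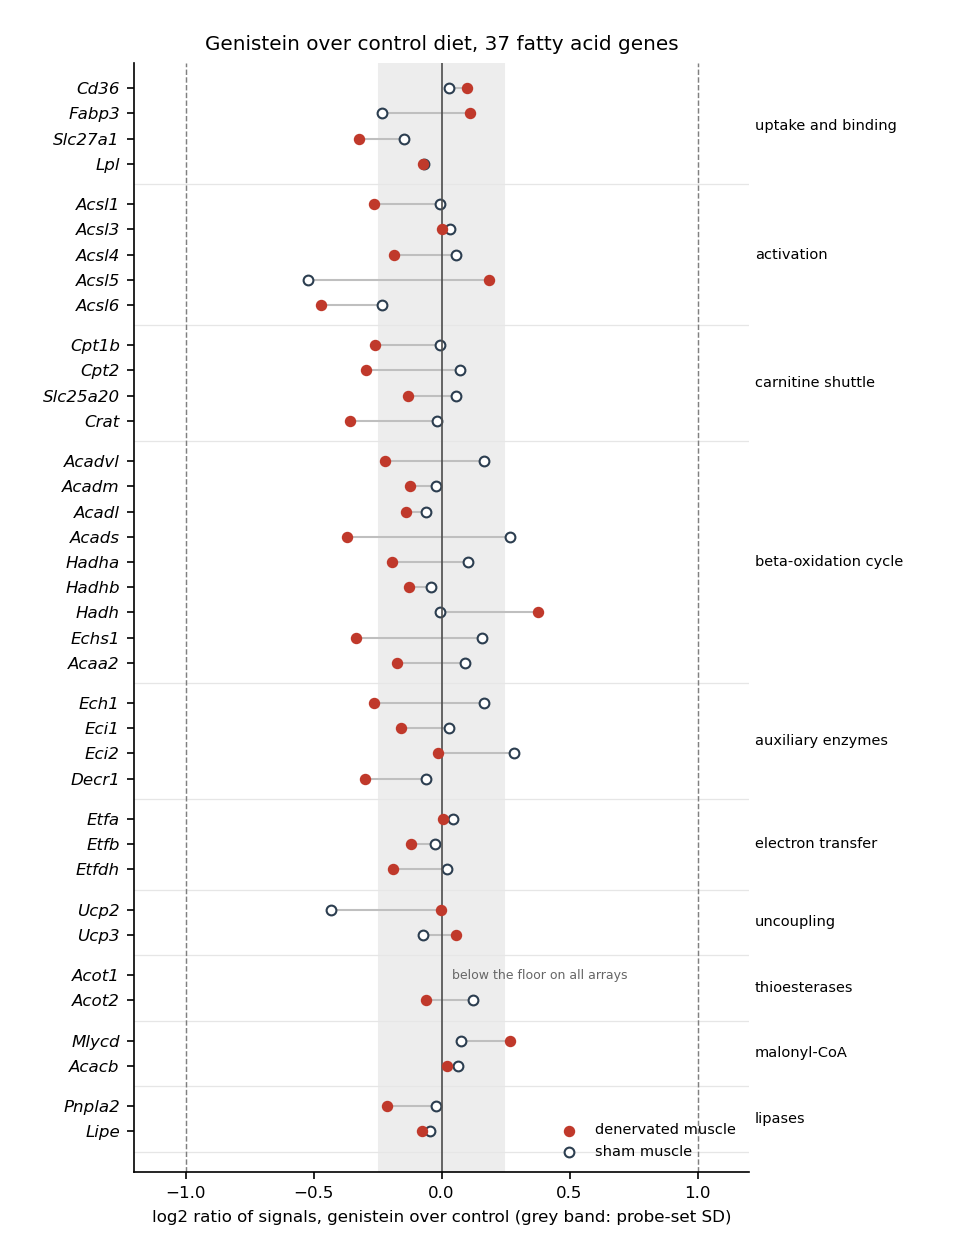
Log2 ratio of genistein over control diet signal for each gene, in denervated muscle (filled points) and sham muscle (open points). The grey band spans 0.25 either side of 0, the SD between probe sets in denervated muscle, and no gene reaches the dashed 2-fold lines.

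Markers of tissue makeup and RNA quality also differed between these pools, and their part in the results was not tested. All 7 muscle fibre markers were below 0 for genistein over control diet in both denervated (median -0.33) and sham muscle (-0.12), and 7 of 7 were below 0 for denervation on both diets (-0.81 on genistein and -0.65 on the control diet). Endothelial markers, from cells that also hold Cd36, had medians of -0.45 for denervation on genistein and -1.02 on the control diet, with summed signals of 3029 units in denervated and 4347 in sham muscle on genistein, against 2109 and 4284 on the control diet. Of the 7 adipocyte markers on the array, Lep was below the floor on all 4 arrays, and 5 of the 6 measured were above 0 for genistein over control diet in denervated muscle (median 0.98). Car3 is also a slow muscle gene, and without it the sum of the other 6 was 2738 units in denervated and 1174 in sham muscle on genistein, against 1312 and 1404 on the control diet. Macrophage and leukocyte markers, from cells that also express Ucp2, summed to 6952 and 7597 units in denervated and sham muscle on genistein, against 4118 and 7319 on the control diet. Fibroblast and matrix markers were all 7 above 0 for genistein over control diet in denervated muscle (median 0.73). For denervation their medians were -0.50 on genistein and -1.35 on the control diet, with 1 and 5 of the 7 at least 2-fold lower. The 2 erythrocyte markers on the array were below 0 for genistein over control diet, with medians of -0.71 in denervated and -0.87 in sham muscle. Ucp1, the brown fat uncoupling protein, was below the floor on all 4 arrays. Actin signal at the 3′ end over that at the 5′ end was 2.76 and 2.32 in denervated and sham muscle on genistein, against 3.79 and 2.08 on the control diet. The same ratio for Gapdh was 1.13 and 1.20 in denervated and sham muscle on genistein, against 1.14 and 1.24 on the control diet, lower in denervated muscle on both.

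The related genes of fatty acid metabolism were described through 6 further lists with 78 genes. The regulators had median denervation log2 ratios of -0.77 on genistein and -0.53 on the control diet, with 4 of 10 measured genes at least 2-fold lower on both diets and none higher. These were Sirt3 (-1.76 and -1.78), a mitochondrial deacetylase, Esrra (-1.71 and -1.40) and Esrrg (-1.18 and -1.09), oestrogen-related receptors that drive oxidative genes, and Ppargc1b (-1.58 and -2.01), their coactivator. Angptl4, an inhibitor of lipoprotein lipase, was at 0.44 and 0.56.

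The other uptake and binding genes had medians of -0.50 and -0.82, with 2 of 10 at least 2-fold lower on both diets. Dbi, the acyl-CoA binding protein, read 2569.6 units in denervated and 9687 in sham muscle on genistein, against 2297 and 9738 on the control diet, 3.77-fold and 4.24-fold lower. Vldlr, the very-low-density lipoprotein receptor, was 3.13-fold and 3.65-fold lower. Slc22a5, the plasma membrane carnitine transporter, was at 0.90 and 0.78, the highest of this list.

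The list of other oxidation and ketone genes, mostly mitochondrial, had medians of -0.61 and -0.43, with 5 of 14 at least 2-fold lower and 1 higher on both diets. Acot7, an acyl-CoA thioesterase, read 266 units in denervated and 1954 in sham muscle on genistein, against 272 and 2480.3 on the control diet, 7.34-fold and 9.13-fold lower. Oxct1, the enzyme that commits ketone bodies to oxidation, was 4.59-fold and 5.59-fold lower, Acot13 was at -1.99 and -1.56, and Acad9 at -1.21 and -1.58. Bdh1, a ketone body dehydrogenase, read below the floor in both denervated pools and was at least 2.84-fold and at least 2.44-fold lower. Acot9, a further mitochondrial thioesterase, was 2.93-fold and 2.53-fold higher, the opposite of Acot2.

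Peroxisomal oxidation genes lay near 0, with medians of -0.12 over 8 measured genes on genistein and -0.07 over 9 on the control diet, and none reached 2-fold. Abcd2, a transporter of the peroxisomal membrane, was lowest by the mean of its ratios, with 243 and 349 units in denervated and sham muscle on genistein and 279 and 292 on the control diet (-0.52 and -0.07). Crot, the carnitine transferase of peroxisomes, was highest at 0.43 and 0.80. Beside these, the 9 enzymes of the mitochondrial cycle had medians of -1.33 and -1.00, and the difference between the lists was not tested.

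The lipid droplet and storage genes lay on both sides of 0, with medians of -0.64 and -0.27 and 2 of 13 at least 2-fold lower and 2 higher on both diets. G0s2, the inhibitor of adipose triglyceride lipase, read 353 units in denervated and 5349 in sham muscle on genistein, against 322 and 4049 on the control diet, 15.2-fold and 12.6-fold lower, while its target Pnpla2 was at -0.39 and -0.20. Plin4, a droplet coat protein, was 5.68-fold and 3.52-fold lower. Plin2, the common droplet coat protein, read 10921 and 4491 units in denervated and sham muscle on genistein, against 11124 and 5010.4 on the control diet, 2.43-fold and 2.22-fold higher. Mgll, monoacylglycerol lipase, was 4.01-fold and 3.01-fold higher.

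Among fatty acid synthesis genes the medians were 0.12 and 0.19, with 2 of 11 measured on both diets at least 2-fold higher and 0 lower. Scd, stearoyl-CoA desaturase, read 1529 units in denervated and 152 in sham muscle on genistein, against 501 and 130.1 on the control diet, 10.1-fold and 3.85-fold higher. For genistein over control diet in denervated muscle, the list had a median log2 ratio of -0.115, with 6 of 11 measured genes below 0. Scd was higher on genistein there by a log2 ratio of 1.61. Fasn, fatty acid synthase, was higher by 1.03 (713 units on genistein and 348 on the control diet), and was named after its values were seen. The 6 adipocyte markers other than Car3 also had their highest sum in that pool, and their part in these values was not tested. Fads1, a desaturase of polyunsaturated fatty acids, read 1299 and 356 units in denervated and sham muscle on genistein, against 1636 and 383 on the control diet, 3.65-fold and 4.27-fold higher.

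**Figure D5:**
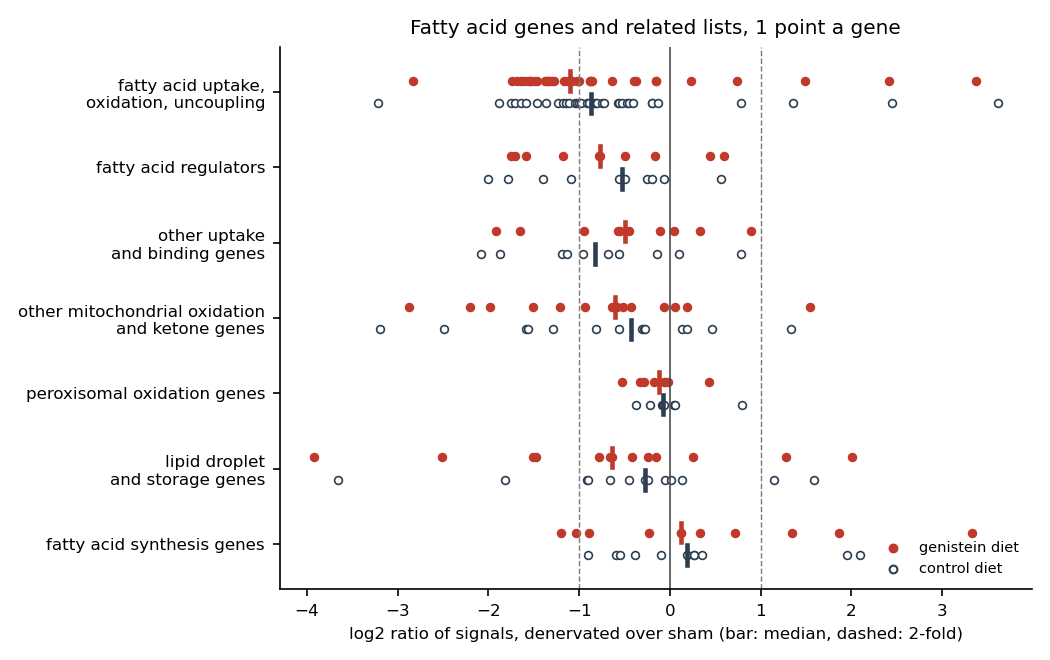
Log2 ratio of denervated over sham signal for the fatty acid uptake, oxidation and uncoupling genes and the 6 related lists, with 1 point per gene measured on both diets, the genistein diet as filled and the control diet as open points, and a bar at each median. The peroxisomal genes sit near 0, while the lipid droplet and synthesis lists spread in both directions.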

How the data were processed

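Total RNA of soleus muscle was pooled from 8 rats per group and hybridised to 1 Affymetrix array per group, after 3′ biotin labelling. The intensity of each probe set, on a linear scale, was deposited by the authors for every array, made with GCOS 1.1 per the submitters' processing notes. The level that the arrays were scaled to is unknown here. The mean after trimming 2% at each end was 500.2 units on each array. From 31099 probe sets, 57 controls were set aside. Of the rest, 20826 had 1 gene symbol, 436 several and 9780 none listed.

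The floor, the probe set for each gene and the 2-fold line are as given with the results, and ratios are log2 of signals after the floor. With 1 array per group no test was made. The number of arrays limits the precision. The members and lists were chosen with earlier results of these data known. Every gene of the pathway is accounted for. Of the related lists, the lowest and highest gene by mean denervation ratio, and genes past 2-fold on both diets, could be named. All 37 symbols matched RefSeq (GRCr8). Alternatives were 3 scalings, other floors, the mean of probe sets and a 1.5-fold line. Computations used Python 3.11.15, numpy 2.4.6 and pandas 2.3.3 and were tested on simulated data.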

Additional observations from a re-analysis of the deposited data

Results flagged for a closer look

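The genes below had genistein over control diet log2 ratios of opposite sign in denervated and sham muscle, further apart than the SD of 0.34 between probe sets. Each value rests on 4 arrays, and none of these differences was tested. Acsl5 stood at 0.18 in denervated and -0.52 in sham muscle, a difference of 0.71, and its denervation ratio was 0.23 on genistein and -0.47 on the control diet. Its other probe set gave 0.74 and 0.20, of 1 sign. Acads, at -0.37 in denervated and 0.27 in sham muscle, had a difference of -0.63. Echs1 had a difference of -0.49 (-0.34 and 0.16), Ech1 of -0.43 (-0.27 and 0.16), Acadvl of -0.39 (-0.22 and 0.17) and Cpt2 of -0.36 (-0.29 and 0.07). In these 5 genes of oxidation and its carnitine shuttle the ratio was below 0 in denervated and above 0 in sham muscle. Opposite signs were the rule by which the genes were picked, so they are not a result. The share of all genes that pass this rule is not given here. Hadh ran the other way with a difference of 0.39 (0.38 and -0.0075), as did Fabp3 with 0.34 (0.11 and -0.23).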

How the results depend on the processing

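With the arrays scaled on the hybridisation controls, the denervation medians of the fatty acid genes were -0.62 on genistein and -0.50 on the control diet. With that scaling 9 and 8 genes were at least 2-fold lower. The diet median in denervated muscle was -0.0049, beside 0.13 for all genes. The median difference between diets was -0.0704, beside 0.11 for all genes. After quantile normalization the denervation medians were -0.89 and -0.63. After scaling on the array median, the diet median in denervated muscle was -0.27 and the median difference -0.30, beside -0.13 and -0.11 for all genes. A 1.5-fold line gave 23 lower genes on the control diet. The share of all genes past that line is not given here, so this count cannot be set against it. With the mean of all probe sets, Hadha was at least 2-fold lower and Lipe at least 2-fold higher on genistein in denervated muscle. A probe set of Hadha with 5.5 units on genistein and 35.8 on the control diet entered that mean. For Lipe it was a probe set with 92.4 and 19.1 units, below the floor on the control diet. The denervation ratio of Hadha on the control diet turned to 0.10, where probe sets near or below the floor entered its mean. The cause of the other shifts was not tested. Of 148 single-gene ratios, the mean of probe sets moved 21, hybridisation scaling 70, quantile normalization 11 and a floor at the 60th percentile 4, while a floor at the 20th percentile, no floor and median scaling moved 0. These counts leave out smaller shifts. Median scaling put 33 of the 36 genes below 0 for diet in denervated muscle, against 27 as deposited. No paired fit of the 2 denervated and sham pairs was run, since it would rest on 1 residual degree of freedom. With 1 array per group, no array was left out. Signals under the floor, as for Acot1, allow no ratio.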
